A study of Mus musculus with 47 samples.

Results

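The genes described here are 10 of the 22800 gene symbols in a table of read counts from single NPY-positive neurons. They encode proteins of the dense core vesicle: the granins Chga, Chgb, Scg2, Scg3, Scg5 and Vgf, and the peptide processing enzymes Cpe, Pcsk1, Pcsk2 and Pam. They were chosen by name, for their function. All 10 were in the table, and 9 of them, all but Pcsk1, were read in 10 or more of the 23 cells compared, the filter used for statements about all genes.

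Each library was made from the cytosol of 1 neuron, drawn into a patch pipette and amplified to cDNA (Nextera XT, polyA RNA). The 10 neurons of the auditory cortex (AC, layers 1 and 2, coronal slices) and the 13 of hippocampal area CA3 (stratum lacunosum-moleculare, horizontal slices) came from mice of 3 to 8 weeks in which the Npy promoter drives a green fluorescent protein. No drug or genetic treatment separated the groups, and the comparison is between regions. The plane of slicing differed with the region, and mouse or recording day may have as well, so that these cannot be told apart. The animals are given as 8 NPY-EGFP mice in the labels and as the NPY-hrGFP strain in the study's methods. No source ties the cells to mice. Each region therefore counted as 1 sample, no test was possible, and every SD below is the spread over cells. A neuron enters the sample because its Npy reporter glows, so the presence of Npy reads is not a finding.

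The 23 libraries held 1715012 to 6265431 reads in AC and 2229519 to 7949918 in CA3, with 3163 to 6288 and 3679 to 8149 detected genes. The libraries carried the markers of GABAergic neurons: the 5 measured ones summed to 4415 to 22696 CPM (reads on a gene per 1e6 reads of the library) in AC and 3593 to 23042 in CA3, whereas the 7 pyramidal cell markers stayed at or below 190 and 383 CPM. Of other cell types, the 8 astrocyte markers reached 3030 CPM in AC and 660 in CA3 (Aqp4 at 0 in all 23 cells), the 8 oligodendrocyte markers 367 and 1043 (Mog, Cldn11 and Opalin at 0), the 8 microglial markers 4476 and 2161 (Tmem119 at 0) and the 5 endothelial markers 1.17 and 33.7 (Cldn5, Flt1, Ly6c1 and Slco1a4 at 0). The part of such reads in the results was not tested.

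Neuropeptides such as NPY are made as longer precursors, sorted in the trans-Golgi network into dense core vesicles and cut there into active peptides. The granins are acidic secretory proteins that help form and load these vesicles, and several are themselves cut into peptides. The prohormone convertases encoded by Pcsk1 and Pcsk2 cut precursors at pairs of basic residues, carboxypeptidase E (Cpe) trims the basic residues left at the cut end, and peptidylglycine alpha-amidating monooxygenase (Pam) converts a C-terminal glycine to the amide that NPY carries. Scg5 encodes the chaperone that the Pcsk2 product needs to mature.

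The genes lie on 7 mouse chromosomes (GRCm38, GENCODE vM21, whole gene spans): Chga at chr12:102554969-102565028, Chgb at chr2:132781278-132795079, Scg2 at chr1:79434669-79440120, Scg3 at chr9:75643189-75684056, Scg5 at chr2:113776362-113829121, Vgf at chr5:137026392-137033351, Cpe at chr8:64592542-64693054, Pcsk1 at chr13:75089826-75134861, Pcsk2 at chr2:143546156-143816285 and Pam at chr1:97795114-98095646. Counts were over exons. Exons of Pcsk2 overlap those of the antisense genes Pcsk2os1 and Pcsk2os2, and the strand setting of the counting is not given, so Pcsk2 reads cannot be told from theirs. Exons of Pam overlap those of B230216N24Rik on the same strand.

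Granin promoters are known for the cAMP response element, the palindrome TGACGTCA bound by CREB, and the sequences below show which of these genes carry it close to the RefSeq start of transcription. RefSeq promoter sequences (GRCm38.p6) were at hand for 8 of the 10 members, all but Vgf and Cpe. In the 250 bases before the start, TGACGTCA was found in 3 of the 8, Scg2, Chgb and Pcsk1, and in 1.77% of 27025 genes. The shorter TGACG, searched on both strands and contained in the palindrome, was found in 7 of the 8, all but Pam, and in 19.8% of all genes; Npy had neither. The windows below run 5′ to 3′ on the strand of the gene, with the element in capitals, at bases -68 to -61 from the RefSeq start in Scg2, -72 to -65 in Chgb, -78 to -71 in Pcsk1, and for the shorter form -44 to -40 in Chga.
Scg2 (chr1:79440076-79440105, minus strand): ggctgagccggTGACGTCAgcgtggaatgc
Chgb (chr2:132781559-132781588, plus strand): gggctgctccgTGACGTCAgggctgagcga
Pcsk1 (chr13:75089768-75089797, plus strand): ccaggtagatcTGACGTCAagagatggctt
Chga (chr12:102554886-102554915, plus strand): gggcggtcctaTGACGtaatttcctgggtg
The 3 genes with the palindrome had very different reads: Scg2 was read in 18 of the 23 cells, Chgb also in 18, and Pcsk1 in 2. By the GENCODE spans given above, transcripts of Scg2 and Chgb start upstream of these elements, so only by the RefSeq start do they lie before the gene. A match of letters is a description and says nothing of what binds there.

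Chga, Chgb, Scg2, Scg3, Scg5, Pcsk2, Vgf and Pam were read in a smaller share of AC than of CA3 neurons, as were 70.8% of the 5964 genes that passed the filter. For Vgf and Pam the shares were close, 9 of 10 AC against 12 of 13 CA3 cells. Cpe was read in every cell of either region. By mean level, log2(normalized count + 1), 6 members were at least 1 log2 unit higher in CA3 (Chga, Chgb, Scg2, Scg3, Scg5 and Pcsk2), 1 was at least 1 unit higher in AC (Vgf), and Cpe, Pam and Pcsk1 differed by less. The background matters here, because 46.9% of the 5964 genes read in at least 10 cells were at least 1 unit higher in CA3 and 16.6% in AC, with a median difference, AC minus CA3, of -0.84. By the ratio of reads summed over cells Chga and Scg2 were at least 1 unit higher in CA3, as were 23.1% of all genes, and Vgf and Pcsk1 in AC, as were 19.3%. The median of all genes on that scale was -0.09. The median of the 10 members was -1.81, or -0.97 relative to all genes, which became -0.29 without the AC cell N46, -1.50 without N42 and -0.14 by summed CPM. Relative to that median, the 5 members Chga, Scg2, Scg3, Chgb and Pcsk2 remained at least 1 unit higher in CA3, a size reached by 29.9% of all genes, and Scg5 did not (-0.47). Chgb lost this size without N43 (-0.91), without N7 and, like Pcsk2, with a pseudocount of 10 and over all labelled cells (Pcsk2 -0.32). On the same relative scale Vgf (2.42) and Pam (1.11) lay at least 1 unit higher in AC, a size reached by 29.3% of all genes, but Pam fell below 1 with a pseudocount of 10 (0.79), by summed CPM (0.27), without N29 (0.39) and without any of 6 other cells, and was -0.37 over all labelled cells. Pcsk1, which did not pass the filter, stood at 1.16 and at 0.40 without N7, where a gene with no read in any cell stands at 0.84. No member separated the regions without overlap of cells, which 1 gene did with CA3 higher (0.0168%) and 2 with AC higher (0.0335%).

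**Figure D1:**
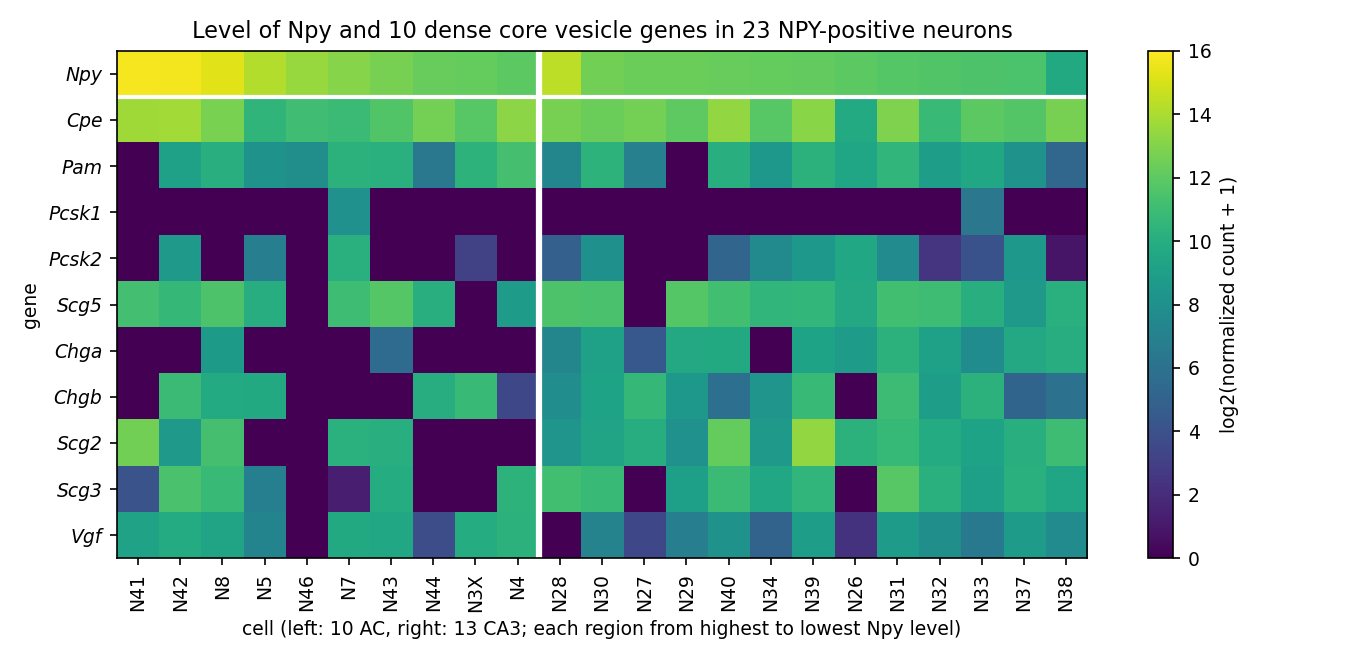
Level of Npy and the 10 genes, log2(normalized count + 1) by colour, in each of 23 cells (columns; 10 AC left of the white line, 13 CA3 right of it, each ordered from the highest to the lowest Npy level). Dark cells had no read: they fill most of the Chga row in AC and nearly all of the Pcsk1 row in both regions, whereas the Cpe row has none.

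The number of members read per cell was 2 to 8 in AC, with a median of 6.5, and 6 to 10 in CA3, with a median of 9. Fewer genes of any kind were read in AC: the median of detected genes was 5007.5 against 5704 in CA3. Of the 5964 genes that passed the filter, 70.8% were read in a smaller share of AC cells. Reads on the members together made up 577 to 4570 CPM in AC (median 2598) and 1591 to 7951 CPM in CA3 (median 2876), so the summed level overlapped widely. The AC neuron N46 had the fewest members, Cpe and Pam alone, beside 9327 Npy reads. It also held 3086 CPM of microglial and 1119 CPM of astrocyte markers, and N42, with 8 members, 4476 and 1010 CPM, more microglial marker reads than any other of the 10 AC cells. The part of these reads in the values of N46 and N42 was not tested. The CA3 neuron N33 had all 10. All 6 granins were read together in N8 alone among the 10 AC cells (exact 95% interval of the share 0.253% to 44.5%), against 9 of the 13 CA3 neurons (38.6% to 90.9%). These intervals cover the counting of cells only. With every library thinned to 1715000 reads the cells with a read numbered 1 fewer for Scg3 in AC and for Pcsk2 in CA3 and were otherwise the same.

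Chga, chromogranin A, showed the largest difference of the 10. In AC its level was 0 CPM in the lowest and the median cell and 113 in the highest, and in CA3 0, 181 and 313 CPM. Only N8 (706 reads) and N43 (35 reads) held Chga reads in AC, against 12 of the 13 CA3 cells, all but N34. Mean levels were 1.43 ± 3.11 for the 10 AC cells and 8.09 ± 2.88 for the 13 CA3 cells (SD), which differed by -6.66, and 9 CA3 cells lay above every AC cell. Only 14 of the 5964 genes had a lower difference. Summed over cells, Chga stood at 21.8 CPM (exact Poisson 95% interval 20.2 to 23.4) in AC and 166 CPM (162 to 169) in CA3, 7.61-fold higher in CA3. N8 alone gave 95.3% of the AC reads, and without it the AC level was 1.26 CPM.

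Scg2, secretogranin II, the precursor of secretoneurin, was read in all 13 CA3 cells and in 5 of 10 AC cells. Its CPM ran from 0 over a median of 33.4 to 1114 in AC and from 70.4 over 345 to 3123 in CA3. The AC cells fell into 5 with no read (N3X, N4, N44, N46 and N5) and 5 with 256 to 4868 reads. Where Scg2 was read, mean levels were 10.57 ± 1.44 (SD, 5 AC cells) and 10.09 ± 1.50 (SD, 13 CA3 cells), so the difference of -4.80 in mean level lay in the number of cells with a read. The sum was 317 CPM in AC and 809 in CA3, 2.55-fold higher in CA3, but 62.8% of the CA3 reads came from the neuron N39, and without it the fold was 1.13.

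Chgb, chromogranin B, had reads in 6 AC cells and in 12 from CA3, and Scg3, secretogranin III, a granin that binds chromogranin A, in 7 and 11. Chgb ran from 0 over a median of 116 to 600 CPM in AC and from 0 over 112 to 534 CPM in CA3, so that its medians were close although the mean levels, 5.46 ± 5.15 and 7.90 ± 3.07, differed by -2.44. Scg3 ran from 0 over 21.6 to 497 CPM in AC and from 0 over 395 to 947 CPM in CA3, and its mean levels of 5.49 ± 4.93 and 8.66 ± 3.94 differed by -3.18. For both genes 1 CA3 cell lay above every AC cell. The sums differed less than the mean levels: 190 against 222 CPM for Chgb and 184 against 354 CPM for Scg3. Without N39 the sum of Chgb in CA3 was 162 CPM, which is below that of AC. N8 gave 49.8% of the AC reads of Scg3. Without it the AC sum of Scg3 was 113 CPM, and the fold, CA3 over AC, was 3.13 in place of 1.93.

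Scg5 was read in 8 of 10 AC cells, all but N3X and N46, and in 12 of 13 CA3 cells, all but N27. Its CPM ran from 0 over 311 to 854 in AC and from 0 over 493 to 1027 in CA3. Counting only cells that had it, the AC mean was 10.65 ± 0.97 and the CA3 mean 10.65 ± 0.90. The difference over all cells, -1.31, came to -0.36 without N46 and to -2.13 without N27, so single cells with no read set its size.

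Vgf, a granin-like precursor whose transcription follows neuronal activity and growth factors, was the only member at least 1 unit higher in AC by mean level. Its CPM ran from 0 over 159 to 367 in AC and from 0 over 37.2 to 148 in CA3. It was read in 9 AC cells, all but N46, and in 12 CA3 cells, all but N28, and 7 AC cells lay above every CA3 cell. The mean levels were 7.88 ± 3.39 and 6.30 ± 2.80, a difference of 1.58, and the sum was 155 CPM (151 to 159) in AC and 69.0 CPM (66.7 to 71.4) in CA3, 2.24-fold higher in AC. Without N46 the difference was 2.46, without N28 it was 1.05, and over all labelled cells 0.37. A list of 14 immediate early genes, transcription factors and other genes induced within minutes of activity, moved with it: 7 were read in at least 10 cells and all 7 were at least 1 unit higher in AC, where 16.6% of all genes were, with a median difference of 3.44 (Egr4 4.38, Jun 4.10, Egr1 4.02, Nr4a1 3.44). Their sum was 1804 to 18572 CPM in AC and 331 to 3890 CPM in CA3. Within a region Vgf followed that sum loosely or not at all (Spearman rho 0.37 over 10 AC cells and 0.00 over 13 CA3 cells), and its part in the Vgf difference was not tested. The relation was not particular to Vgf. In AC rho was higher for Cpe (0.54), Chgb (0.48), Scg2 (0.42) and Scg5 (0.38), and lower for Chga, Scg3, Pcsk1, Pcsk2 and Pam. In CA3 it was higher for Scg3 (0.32), Pcsk2 (0.20) and Pcsk1 (0.08), and lower for the other members.

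**Figure D2:**
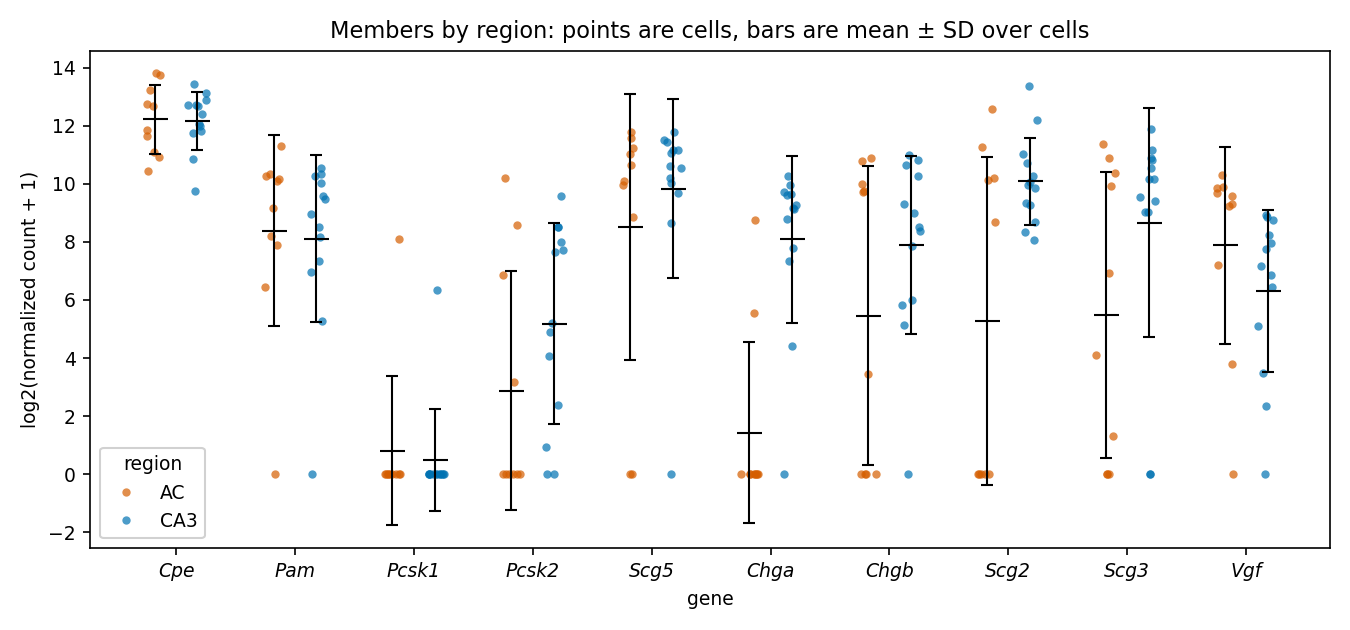
Level of each of the 10 genes, log2(normalized count + 1), by region (AC orange, 10 cells; CA3 blue, 13 cells). Points are cells and bars are the mean ± SD over cells. The points of Chga at 0 are 8 AC cells and 1 CA3 cell, and 2 AC points of Cpe lie above every CA3 point.

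Cpe was the most abundant member per length and the most even. It was read in all 23 cells, from 466 over a median of 1473 to 2775 CPM in AC and from 286 over 1414 to 2618 CPM in CA3. Its mean levels were 12.21 ± 1.20 and 12.16 ± 0.99, a difference of 0.05 that was -0.16 with TMM factors and -0.13 with library size. The AC cells N41 and N42 lay above every CA3 cell. Pam was read in 9 AC cells, all but N41, and 12 CA3 cells, all but N29. It ran from 0 over 188 to 737 CPM in AC and from 0 over 185 to 380 CPM in CA3, with mean levels of 8.38 ± 3.28 and 8.11 ± 2.88 and a difference of 0.27, which was 1.20 without N41 and -0.40 without N29. Cpe and Pam were read together in 9 of 10 AC cells and 12 of 13 CA3 cells.

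Reads on the convertases were scarce. Pcsk1, which encodes PC1/3, had reads in 1 AC cell (N7, 184 reads) and 1 CA3 cell (N33, 93 reads), and 0 in the other 21 cells. Pcsk2, which encodes PC2, had reads in 4 AC cells, N3X (11), N42 (240), N5 (73) and N7 (781), and in 11 CA3 cells, with 1 to 849 reads. At 10 reads or more the counts were 4 of 10 and 9 of 13. Its mean levels were 2.88 ± 4.11 and 5.19 ± 3.45, a difference of -2.31, and the sums were 32.4 and 55.7 CPM, of which N7 gave 70.7% in AC. N7 and N33 had reads on both convertases, and Pcsk1 per kb exceeded Pcsk2 only in N33, by 2.80 log2 units.

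A cell with reads on Cpe, Pam and a convertase was seen in 4 of 10 cases in AC (exact 95% interval of the share 12.2% to 73.8%) and 11 of 13 in CA3 (54.6% to 98.1%), or 9 of 13 at 10 reads or more. These are counts of cells from 1 sample per region, beside the 70.8% of genes read in a smaller share of AC cells. Neither convertase was read in 6 AC cells and in the CA3 cells N27 and N29. The AC cells N41 and N8, with 45645 and 66199 Npy reads, were among the 6. Scg5 and Pcsk2 were read together in 3 AC and 11 CA3 cells, and Scg5 without Pcsk2 in 5 AC cells and 1 CA3 cell. Pcsk1n, which encodes proSAAS, an inhibitor of the Pcsk1 product, was read in all 23 cells, at 190 CPM in each region. Furin, a convertase of the trans-Golgi network, was read in 1 cell of each region, N44 and N34. The levels were unlike, 22.3 CPM in AC and 0.0614 CPM in CA3, where N34 held fewer than 10 reads.

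Set per length (reads per kb of exon per 1e6 reads, summed over cells), the order in AC was Cpe (595), Scg5 (258), Scg2 (126), Chgb (69.3), Scg3 (67.0), Vgf (52.1), Pam (18.1), Chga (7.90), Pcsk2 (4.10) and Pcsk1 (0.964). In CA3 it was Cpe (626), Scg2 (322), Scg5 (304), Scg3 (129), Chgb (81.1), Chga (60.1), Vgf (23.2), Pam (16.1), Pcsk2 (7.05) and Pcsk1 (0.340). Not every neighbour in this order held cell by cell. In AC, Scg2 exceeded Chgb in 4 cells and fell below it in 5, Chgb exceeded Scg3 in 3 and fell below it in 6, Scg3 exceeded Vgf in 4 and fell below it in 5, and Chga exceeded Pcsk2 in 2 and fell below it in 4. In CA3, Scg2 exceeded Scg5 in 5 cells and fell below it in 8, and Chgb and Chga, like Vgf and Pam, were split 7 to 6. Cpe was the highest member in 7 AC and 9 CA3 cells, Scg5 in 3 and 3, and Scg2 in 1 CA3 cell. Of the granin level per length, Scg2 made up 21.7% in AC and 35.0% in CA3, Scg5 44.5% and 33.1%, Chga 1.36% and 6.53%, and Vgf 8.97% and 2.53%. Without N39 the CA3 shares were 20.1% for Scg2, 43.2% for Scg5, 8.32% for Chga and 2.60% for Vgf, and the CA3 level of Scg2 was 143, below the 307 of Scg5.

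**Figure D3:**
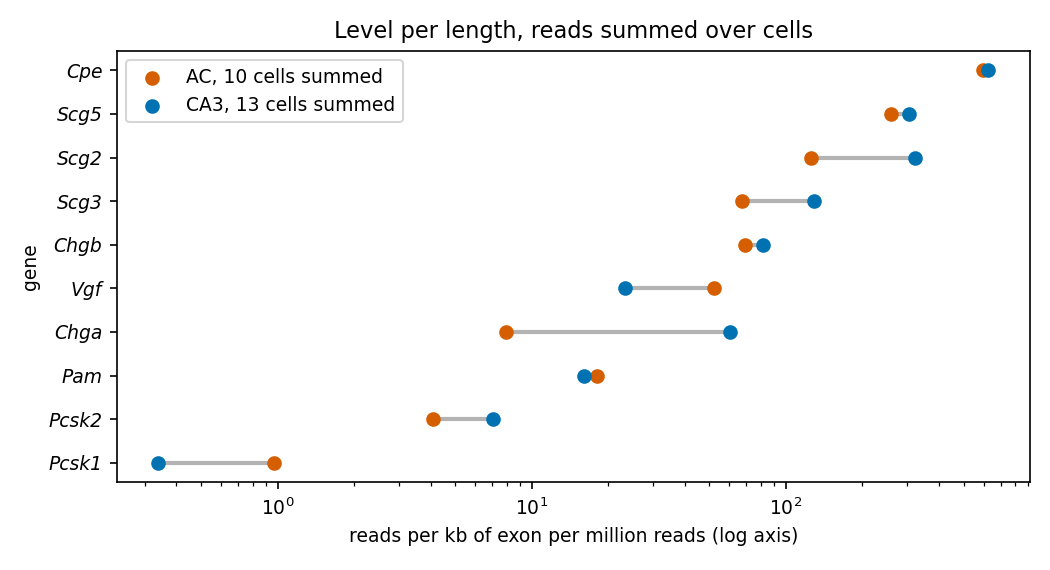
Level per length of the 10 genes in reads per kb of exon per 1e6 reads (horizontal log axis), with reads summed over 10 AC cells (orange) and 13 CA3 cells (blue). The widest gaps are those of Chga (7.90 against 60.1) and Pcsk1 (0.964 against 0.340, 1 cell each), and Cpe is nearly level at 595 and 626.

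**Figure D4:**
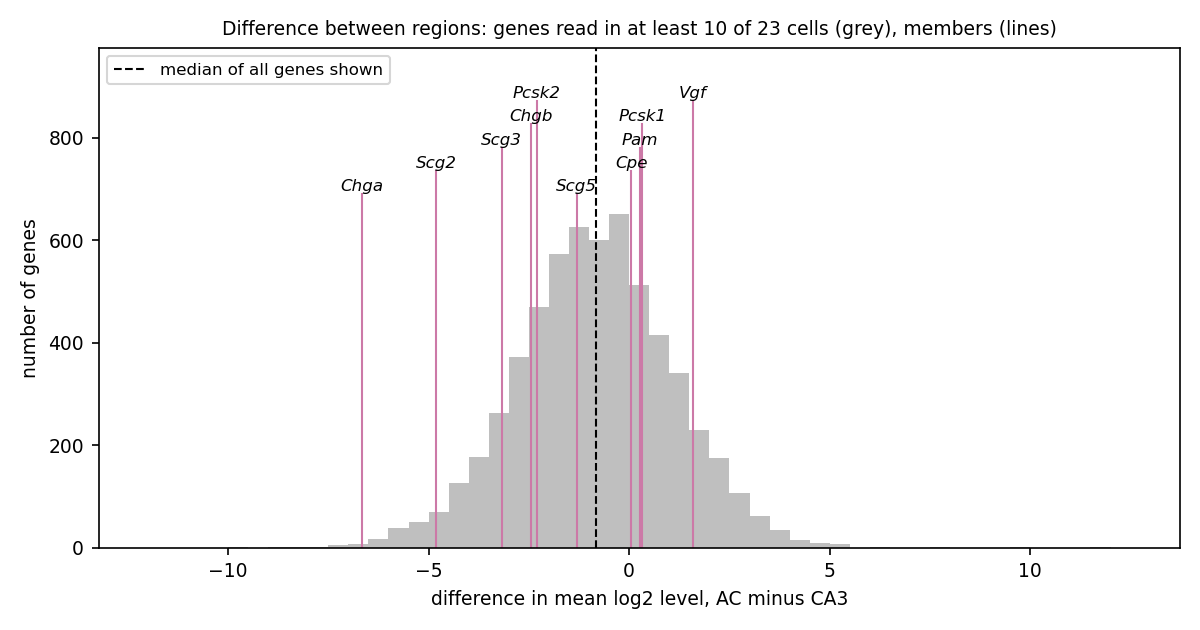
Mean log2 level in AC minus that in CA3 (horizontal axis) for the 5964 genes read in at least 10 of 23 cells (grey bars, number of genes in bins of 0.5), with lines at the values of the 10 genes. The dashed line is the median of the grey genes, -0.84; Chga at -6.66 lies in the far left tail and Vgf at 1.58 on the right, and Pcsk1 is drawn although it did not pass the filter.

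Npy itself was higher in AC, from 1174 over a median of 2722 to 10566 CPM against 250, 1336 and 4684 CPM in CA3, with mean levels of 13.68 ± 1.48 and 12.05 ± 1.01. The cells with the most Npy did not share 1 set of vesicle genes. Of the 3 AC cells with the highest Npy level, N41 had Scg2 (4868 reads), Scg3 (13 reads), Scg5, Vgf and Cpe but no Chga, Chgb or Pam, N42 had 8 members, and N8 had all 6 granins. The CA3 cell with the most Npy, N28 (11113 reads), had no Vgf read, and the CA3 cell with the least, N38 (917 reads), had 9 of the 10 members.

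Across cells the members followed Npy weakly. Spearman's rho of the level with that of Npy over the 10 AC cells was 0.63 for Scg2, 0.44 for Scg5, 0.36 for Scg3, 0.25 for Cpe, -0.06 for Chgb, -0.37 for Vgf and -0.62 for Pam. Over the 13 CA3 cells it was 0.50 for Scg5, 0.25 for Cpe, 0.21 for Scg3, 0.15 for Chgb, -0.02 for Pam, -0.10 for Pcsk2, -0.41 for Scg2, -0.42 for Chga and -0.45 for Vgf. The median of the members was 0.25 over 7 genes in AC and -0.02 over 9 genes in CA3. The AC median came to -0.02 without N42, -0.006 with library size and 0.44 over all labelled cells. All genes read in at least 50% of the cells of a region had medians of 0.02 and -0.04. Their 5% to 95% ranges were -0.620 to 0.67 in AC and -0.56 to 0.52 in CA3. The members lay inside the range of other genes, except Pam in AC, which at -0.624 lay just below it. Pam came to -0.27 with TMM factors, -0.41 with library size and 0.44 over all labelled AC cells. Scg2 in CA3 came to -0.67 with TMM factors or library size and to 0.57 over all labelled cells. Pearson's r was 0.62 for Scg2, 0.12 for Vgf and -0.49 for Pam in AC, and 0.04 for Scg5 and -0.60 for Vgf in CA3. Without the 2 cells farthest from the median of Npy (N41 and N42 in AC), rho was 0.49 for Scg2, 0.34 for Scg5 and 0.24 for Scg3. It was -0.20 for Chgb, -0.45 for Cpe, -0.52 for Pam and -0.60 for Vgf. Without N28 and N38 in CA3, it was 0.36 for Scg5, 0.46 for Cpe, -0.0046 for Scg3, 0.12 for Chgb, -0.05 for Pam, -0.26 for Pcsk2, -0.17 for Scg2, -0.14 for Chga and -0.28 for Vgf.

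**Figure D5:**
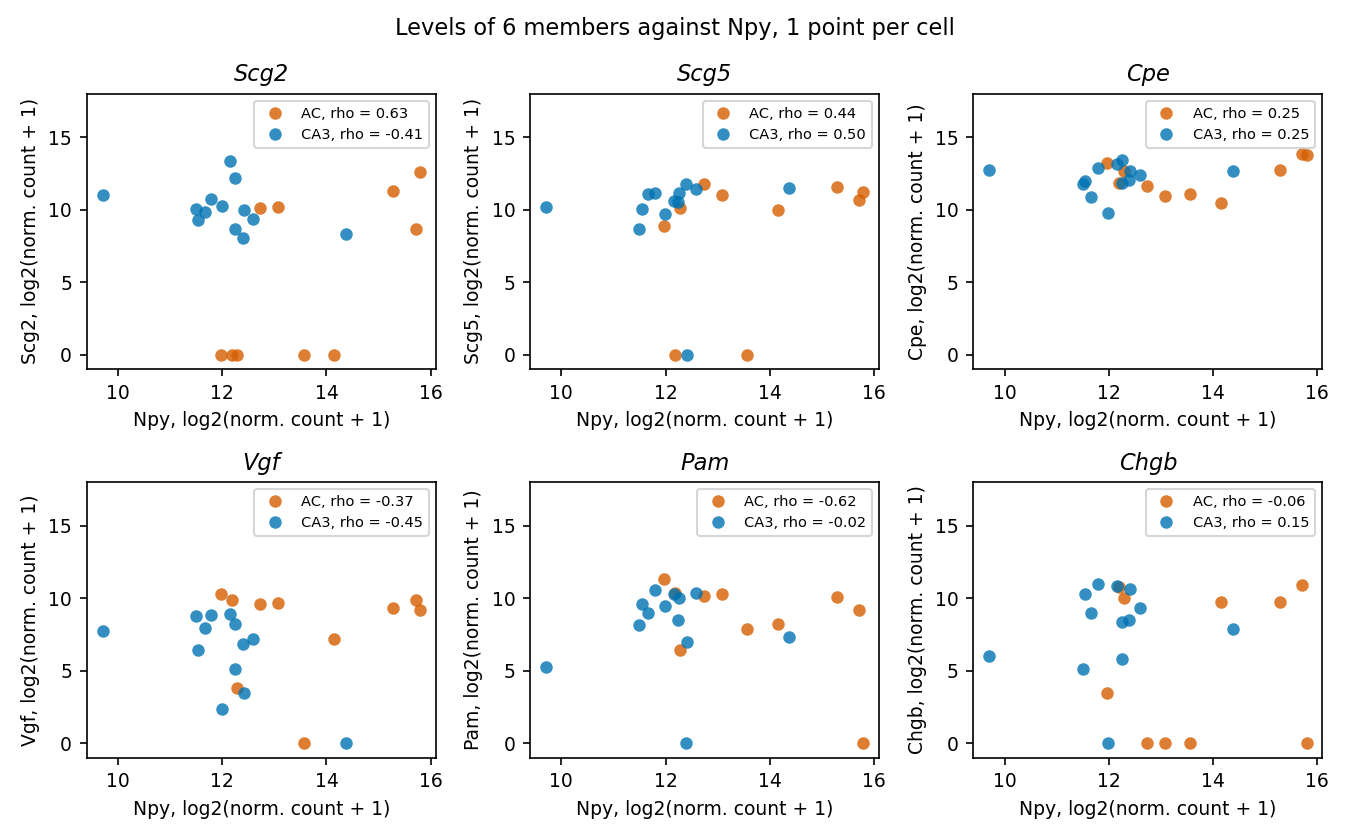
Level of 6 of the 10 genes (vertical axes) against that of Npy (horizontal axes), both as log2(normalized count + 1), with 1 point per cell (AC orange, 10 cells; CA3 blue, 13 cells) and Spearman's rho in each panel. Scg2 runs upward in AC (0.63) through 5 cells at 0 and downward in CA3 (-0.41), and Cpe has the same rho in both regions (0.25).

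These points share libraries, depth and scaling. The Npy level itself had a rho of -0.60 with the size factor over the CA3 cells and 0.07 over the AC cells, and of -0.46 and -0.21 with the number of detected genes. The genes most like Npy were Mkrn1 (0.98), Cfl2 (0.95), Gm38393, Snrpn and Snurf (0.94) over the AC cells, and mt-Co1 (0.94), Glrx5, Mrpl36, mt-Co2 and mt-Co3 over the CA3 cells, with no member among them.

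The members were also compared with each other. Over 21 pairs in AC the median rho was 0.24, with 15 pairs above 0, and over 36 pairs in CA3 it was 0.34, with 30 above 0. All pairs of genes read in at least 50% of the cells had medians of 0.01 in each region, with 51.2% of pairs above 0 in AC and 51.4% in CA3. The highest pairs were Scg2 with Scg5 (0.85) and Vgf with Pam (0.84) in AC, and Chga with Vgf (0.76), Pcsk2 with Pam (0.65), Scg2 with Vgf (0.64) and Scg3 with Scg5 (0.62) in CA3. These pairs share depth and scaling too. Scg2 with Scg5, the highest pair in AC, was the lowest in CA3 (-0.32). Among the genes most like the mean level of the 10 members over all 23 cells, out of 1211 genes read in at least 20, were Nrsn1 (0.68), Tecr, Hspa9 and App (0.63 each), where the median of all was 0.11 and Npy had -0.25. These values pool regions whose means differ (member mean 5.84 in AC and 7.68 in CA3). Within CA3 alone rho was 0.49 for Nrsn1, 0.31 for Tecr, 0.18 for Hspa9 and 0.74 for App, and within AC alone 0.83, 0.60, 0.85 and 0.43.

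Other genes of the same route were set beside the members, in lists compared by counts alone. Beside these counts stand the shares of all genes, 46.9% higher in CA3 and 16.6% in AC, or 29.9% and 29.3% relative to their median. Of 17 other processing genes 7 were read in at least 10 cells, 2 at least 1 unit higher in AC, 2 in CA3 and 3 neither, with a median difference of 0.03. Relative to all genes the median was 0.87, with 3 higher in AC and 2 in CA3. Qpct, the glutaminyl cyclase that forms N-terminal pyroglutamate on peptides, had a wider gap than any member: 4 AC cells and all 13 CA3 cells had reads, with mean levels of 2.60 ± 3.83 and 9.41 ± 1.75, and 34.1 against 288 CPM. Ctsl, cathepsin L, a protease that also cuts some neuropeptide precursors, differed by -3.36, and Cpd, a carboxypeptidase of the trans-Golgi network, by 1.88.

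Of 14 measured genes of dense core vesicle formation 10 passed the filter, and 7 of them were at least 1 unit higher in CA3, 2 in AC and 1 neither, with a median of -1.57. Relative to all genes the median was -0.73 and 4 of the 10 were at least 1 unit higher in CA3, Arfip2, Rab2b, Hid1 and Pick1. Before that shift the differences of Arfip2, Rab2b and Hid1 were -3.17, -2.10 and -2.09, and Ccdc186 was higher in AC by 2.37. The receptor-like vesicle membrane protein gene Ptprn, read in all 23 cells, differed by 1.21. Of 24 genes of vesicle release 17 passed, 4 higher in CA3, 3 in AC and 10 neither, with a median of -0.48. Relative to all genes the median took the other sign, 0.36, with 3 higher in CA3 and 4 in AC. Those with the largest differences were Rab27b (-5.41), a GTPase that docks secretory vesicles, the vesicle synaptotagmin Syt4 (-4.01), Rab3b (-3.46) and Syt5 (3.35). Cadps, the priming factor of dense core vesicles, was read in all 23 cells and differed by -0.80, close to the median of all genes.

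Of 11 peptidases that act outside the cell only Nln, neurolysin, passed the filter, with a difference of -2.25. Of 17 neuropeptide precursors 4 passed: Npy (1.63) and Cort (1.49) higher in AC, Cck (-5.45) higher in CA3, and Pnoc (-0.26) neither. Cck, the cholecystokinin precursor, was read in 3 of 10 AC cells and 10 of 13 CA3 cells, at 31.9 and 337 CPM. Sst, Vip, Pdyn, Tac2, Crh, Nts, Adcyap1 and Cartpt had no read in any of the 23 cells, which allows up to 0.0881 CPM in AC and 0.0614 in CA3 (3 reads divided by all reads of that region, counting error only).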

How the data were processed

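The deposited table gives raw counts, not normalized, for 47 columns and 22800 symbols. The study's methods name Trimmomatic, Flexbar, the aligner STAR, build GRCm38 and HTSeq as the counter, and say that rows sharing a symbol were averaged. The submitters' processing notes name featureCounts in place of HTSeq. Library totals count amplified cDNA, so intervals cover counting error only.

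The 10 AC and 13 CA3 columns were those that an earlier analysis had matched to the cells drawn by the study, and the 13 are not all of the CA3 cells that the study kept. The members, lists, named genes (members, Npy, at most 4 genes per list by size or role, and the 5 most like genes, of which 1 is not reported here) and alternatives were chosen with earlier results of these data known. N4 and N4X, whose log2 reads had a Pearson r of 0.995, were taken as 1 cell.

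Levels are log2(count / size factor + 1), with computeSumFactors of scran 1.30.0 (pools of 10 and 20 cells) in R 4.3.3. A difference of 1 in mean level counted as higher. No test was run, and intervals are exact Poisson or Clopper-Pearson at 95%. Alternatives were TMM of edgeR 4.0.16, DESeq2 1.42.0 size factors, library size, pseudocounts of 10 and 0.1, summed CPM, no filter, thinning to 1715000 reads, all labelled cells, and each cell left out. Other steps used Python 3.11.15, and the scripts were tested on simulated data.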

Additional observations from a re-analysis of the deposited data

Results flagged for a closer look

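In the group of 10 AC cells the level of Pcsk1 in N7 stood apart from the others, with the gap to the next cell being 1.00 of the whole range. That value is fixed for any gene read in 1 cell alone. The level of Pam in N41, at 0 reads, was apart from the other AC cells by 0.569 of the range. The check was made on 11 genes at both ends of the AC group. Chance gives such a gap in about 1 of 20 groups of normally spread values, a rate that does not hold for levels at 0, and the 13 CA3 cells were too many for this check.

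Reads on the members were also found outside the 23 cells. Of these columns the further AC and CA3 cells entered only the alternative with all labelled cells. More than 3 reads were seen on 9 of the 10 members in the 3 CA1 cells, where N2X held 3115 reads of Scg2 and 98 of Pcsk1. In the 2 dentate gyrus cells, 2 members passed that limit, Cpe and Scg3. Both libraries were small (N11 89297 and N12 190573 reads) and rich in astrocyte markers, and N11 also held 39072 CPM of oligodendrocyte markers. In the 9 AC columns outside the 10 used, 9 members did, with 5045 reads of Pcsk2 in N47. In the 8 CA3 columns outside the 13 used, 8 members did, among them Chga with 2733 reads in N36. The NPY-negative cell had 1 read on Scg5 and none on the other members. Its library (N16, 291745 reads) held 192010 CPM of oligodendrocyte markers, 3.43 CPM of GABAergic markers and no Gad1 read, so it does not stand for an NPY-negative GABAergic neuron.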

How the results depend on the processing

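Other settings that moved a value changed the sign of the difference in mean level in 17 of 310 cases (Cpe, Pam and Pcsk1), of the difference relative to all genes in 3 of 310 (Pam and Scg5), and of rho with Npy in 38 of 277 (8 members). With the log2 ratio of summed CPM, 2 members were at least 1 unit higher in CA3 (Chga and Scg2) and 2 in AC (Vgf and Pcsk1), against 6 and 1 by mean level. With all labelled cells, which include cells with glial markers and without Npy reads, 0 were higher in AC, the median rho with Npy over CA3 cells was 0.325 in place of -0.02, and Pam relative to all genes was -0.37 in place of 1.11. With each cell left out in turn, the count higher in AC was 1 to 2 (2 without N41, where Pam joined Vgf). The rho of Cpe with Npy over CA3 cells was -0.46 with TMM factors and -0.13 with library size. The median difference of all genes was -0.84 as reported, -0.09 by summed CPM and -1.23 with a pseudocount of 0.1. The causes were not tested. Thinning every library to 1715000 reads changed 2 of the 20 counts of cells with a read, each by 1. Still, 0 reads in a library of amplified cDNA from a part of 1 cell do not show that a transcript was absent. No paired analysis was possible because the labels give neither replicate numbers nor the mouse of a cell.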
